A study of Mus musculus with 3 samples.

Results

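The loci described here are the genes of the cytosolic ribosomal proteins, taken from the deposited annotation of heart ventricle transcripts by their names (Rpl, Rps or Rplp followed by a number). S6 kinases and pseudogene names were left out. The name rule took 85 of the 48626 loci in the expression table. Of these, 43 encode proteins of the large subunit, 30 of the small subunit and 3 of the P stalk, 8 are paralogs of a canonical ribosomal protein, and 1, Rps19bp1, encodes a protein that binds Rps19 and is not part of the ribosome. Levels are FPKM values, in which fragments are scaled to the length of the exons and to the size of the library. With a limit of 1 FPKM in at least 1 library, 80 members were counted as expressed. The other 5 (Rpl10l, Rpl17, Rpl23a, Rpl27 and Rpl39l) stayed under that limit in each library. The libraries came from ventricles of C57BL/6 mice (C57BL/6 J in the study's methods) at the embryonic (E) days E10.5 and E13.5 and of adults of 8 weeks (Adult). Each stage has 1 library, made with a stranded total RNA kit, and whether it pooled animals is not stated in the sources used here. No replicate check and no test exist for any difference between stages. In a bulk library, fewer cells of a type and less RNA per cell cannot be told apart.

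The ribosome translates mRNA with a small subunit, which decodes the message, and a large subunit, which joins amino acids. Each ribosome holds 1 copy of most ribosomal proteins, and growing tissues make the proteins in large amounts. Many of their mRNAs begin with a 5′ terminal oligopyrimidine (TOP) tract, a C followed by further C or T bases, through which mTOR signalling adjusts their translation. Rpl3 lies near the peptidyl transferase centre, and its paralog Rpl3l is known as a form of striated muscle.

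The start sites are shown first, since the TOP tract is the sequence feature that the family is known for. Start sites in the RefSeq promoter collection (GRCm38.p6) were matched for 60 expressed members and for 9329 expressed mRNA loci in all, members included. The start used lay within 5 bases of a deposited transcript start for 50 of the 60 and for 7083 of the 9329. For the rest the nearest entry on the chromosome was taken, so the shares below are approximate. A C at the start followed by C or T at each of the next 4 bases was found in 12 of the 60 members (20%) and in 2.41% of the 9329. A run of at least 8 C or T bases touching the 5 bases on either side of the start was found in 36.7% of members and in 9.64% of all. The following 40-base windows run 5′ to 3′ on the gene's own strand, with 20 bases before the start, and the capitals mark the longest run of C or T bases near the start, whatever its length. The first 5 are members named below that have the C-led tract at the annotated start, the next 3 are highly expressed members without it there, and the last is Rpl3l. The annotated start of Rps18 lies 24 bases from the nearest deposited start, and the others printed lie within 5.
Rpl28 (chr7:4792945-4792984, plus strand): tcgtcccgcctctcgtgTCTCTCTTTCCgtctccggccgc
Rplp2 (chr7:141447631-141447670, plus strand): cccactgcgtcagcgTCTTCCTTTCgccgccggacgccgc
Rps15a (chr7:118116128-118116167, minus strand): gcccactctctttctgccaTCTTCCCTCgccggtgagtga
Rps18 (chr17:33955646-33955685, minus strand): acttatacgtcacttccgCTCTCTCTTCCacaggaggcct
Rps27 (chr3:90213629-90213668, minus strand): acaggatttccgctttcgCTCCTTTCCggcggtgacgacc
Rpl41 (chr10:128549149-128549188, minus strand): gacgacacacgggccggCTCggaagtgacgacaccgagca
Rpl4 (chr9:64173367-64173406, plus strand): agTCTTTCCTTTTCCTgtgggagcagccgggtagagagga
Rps9 (chr7:3704021-3704060, plus strand): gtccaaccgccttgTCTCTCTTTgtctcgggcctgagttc
Rpl3l (chr17:24727806-24727845, plus strand): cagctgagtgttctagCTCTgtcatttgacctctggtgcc
The run was 4 bases long in Rpl3l, against a median of 5 in the members and 3 in all matched loci. In Rpl4 the run lies before the annotated start, so the stricter pattern is not met there. Among the 250 bases before the start, the ETS site CCGGAAG, read on both strands, was present in 26.7% of members and 13.7% of all matched loci. The CCAAT box (CCAAT) was present in 28.3% and 36.2%, the TATA box (TATAAA) in 5% and 6.73%, the YY1 site (AAGATGGC) in 1.67% and 1.81%, and the E-box (CANNTG) in 45.0% and 56.7%. The MEF2 site was in 0 of the 60 members and in 1.70% of all. Such matches are descriptions of letters and do not show binding.

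The 250 bases before the Rpl3l start are given because Rpl3l is the only expressed member that was higher by 1 or more on the log2 scale in the Adult than at E13.5 (chr17:24727576-24727825, plus strand, GRCm38.p6). The capitals mark the 3 E-box matches, the only matches among the 6 motifs searched, and the reverse strand match of each covers the same 6 positions.
Rpl3l upstream: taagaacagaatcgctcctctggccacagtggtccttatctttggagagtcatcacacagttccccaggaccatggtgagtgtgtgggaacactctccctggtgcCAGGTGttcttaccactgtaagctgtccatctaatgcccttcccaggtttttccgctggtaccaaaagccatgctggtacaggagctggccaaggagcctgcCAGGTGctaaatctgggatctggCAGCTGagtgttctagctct
These E-boxes lie 145 to 140, 43 to 38 and 20 to 15 bases before the start.

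The libraries differed in scale and in cell makeup. Over the 48617 of 48626 loci that have exons in the annotation, the FPKM values summed to 600007, 806959 and 438703 for E10.5, E13.5 and Adult, and the smallest steps of the values put 1 FPKM on a 1 kb transcript at about 13.8, 26.7 and 13.8 fragments. All 5 ventricular cardiomyocyte markers were present in each library, with summed levels of 13941, 20267.5 and 26680 FPKM. From E13.5 to Adult, Tnnt2, Tnni3 and Pln were higher, and Myl2 and Actc1 were lower. The 10 proliferation genes summed to 475, 564 and 7.16 FPKM, and all 10 were lower in the Adult than in either embryonic library. The 3 primitive erythroid globins summed to 6727, 16305 and 3.05 FPKM, and the 5 macrophage markers found of 6 to 38.4, 91.2 and 373 FPKM. The globins did not move together, since from E10.5 to E13.5 Hbb-y went from 4356 to 15112 FPKM while Hbb-bh1 and Hba-x were lower. The 7 fast skeletal muscle genes summed to 52.3, 63.4 and 3.67 FPKM, with Pvalb listed at 0 in the Adult. Of these, only Tnni2 was higher at E13.5 than at E10.5. The part of these cells in the differences described below was not tested. Among mRNA loci, 12569 reached 1 FPKM in some library, and their median difference of log2(FPKM + 1) was 0.17 from E10.5 to E13.5, -0.50 from E13.5 to Adult and -0.40 from E10.5 to Adult, and the differences of the members are read against these shifts. This scale understates the change of low loci.

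The ribosomal protein loci took a smaller share of the Adult library than of the embryonic ones. The 80 expressed members held 1.99%, 2.14% and 0.816% of these FPKM sums of the E10.5, E13.5 and Adult libraries. Of the FPKM sum of mRNA loci alone they held 3.51%, 3.98% and 1.08%. Their median levels were 24.9, 50.8 and 13.9 FPKM in the same order. The number of members at 100 FPKM or more was 27, 34 and 11. For all expressed mRNA loci the medians were 9.92, 10.3 and 6.94 FPKM, so the median of the members stood above that of the mRNA loci in all 3 libraries.

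**Figure D1:**
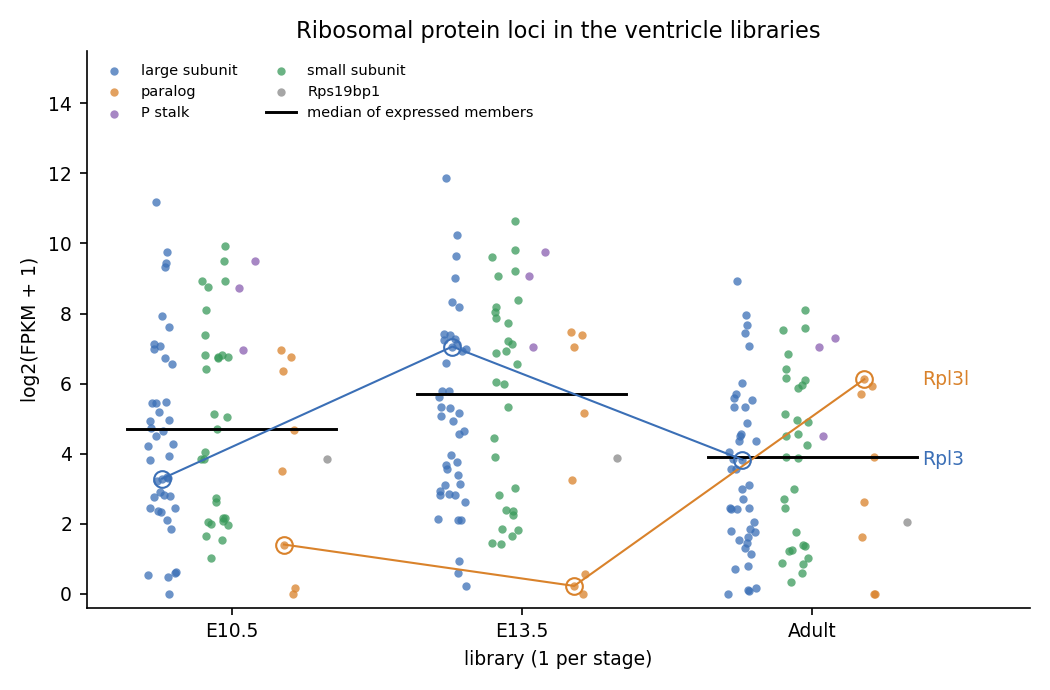
Level of each of the 85 members in the 3 libraries on the log2(FPKM + 1) scale, coloured by subunit or class, with a bar at the median of the 80 expressed members and lines through Rpl3 and Rpl3l. The medians correspond to 24.9, 50.8 and 13.9 FPKM, and Rpl3l passes from the low end of the embryonic libraries to above the median in the Adult.

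A few members held much of the total. The 5 highest members held 46.9%, 48.0% and 38.9% of the summed FPKM of the expressed members at E10.5, E13.5 and Adult. Rpl41, a very short protein of the large subunit, was the highest in each library, at 2321, 3730 and 482 FPKM. Its locus joins transcripts of the neighbouring zinc finger gene Zc3h10, so the value cannot be given to Rpl41 alone. Rpl8 of the large subunit was at 858, 1203 and 203 FPKM. The small subunit protein Rps9 was at 723, 901 and 190 FPKM. Rplp1 of the P stalk was at 724, 870 and 156 FPKM, and Rpl4 of the large subunit, which entered the 5 highest in the Adult, was at 691, 804 and 246 FPKM. The order of the members was similar between libraries, with Spearman's rho over 85 loci of 0.92 for both pairs of neighbouring stages and 0.87 for E10.5 against Adult. These coefficients are across loci that share libraries, lengths and sequence and are descriptions.

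The proteins are made in near equal number, yet the levels of their loci spanned several orders of magnitude. Most members have processed copies elsewhere in the genome. A copy here is a place that matches at least 50% of the transcript at 95% identity or more, and 68 of 85 members had at least 1, with a median of 4 and as many as 37 for Rpl7a. As a second measure, the transcript of each member was read in windows of 100 nt, and a window counted as shared when it matched another place in the genome with at most 2 differences. Of the 85 members, 32 had 90% or more of their windows shared and 9 had under 10%. The 8 expressed members under 10% had median levels of 115, 165 and 60.0 FPKM. The 31 expressed members at 90% or more had medians of 8.76, 10.9 and 4.32 FPKM. Spearman's rho between the shared percent and the FPKM was -0.28, -0.25 and -0.30 over the 85 members, a weak relation across loci. How fragments that map to several places were counted is not given in the sources used here, so the levels of members with high sharing are uncertain, and its part in their values was not tested.

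**Figure D2:**
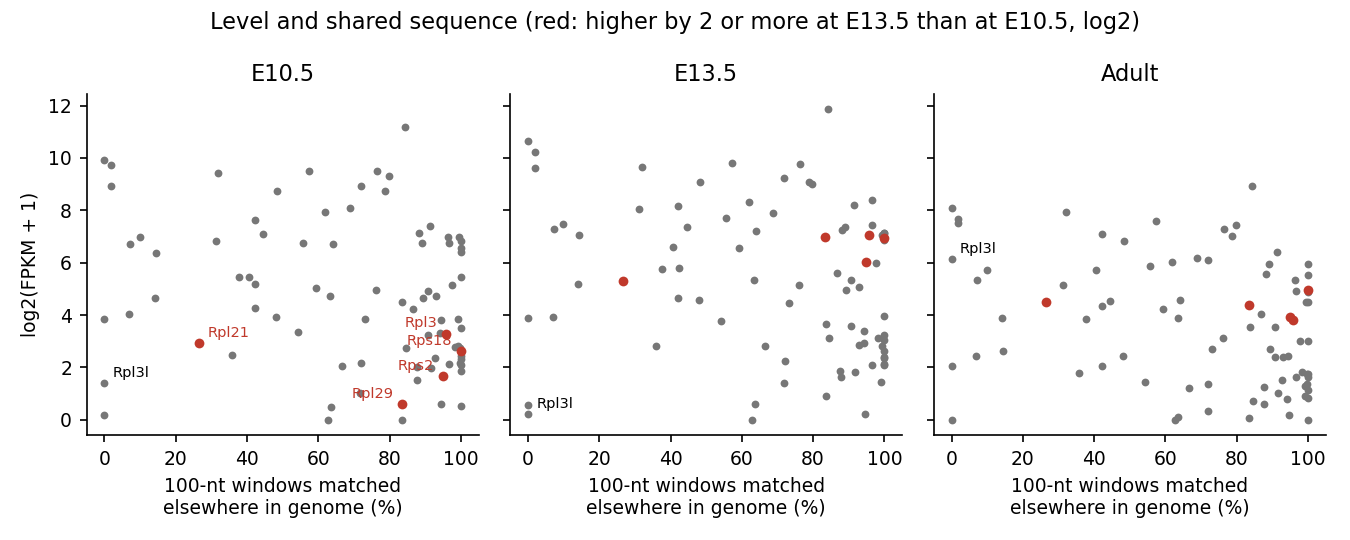
Level of each member, as log2(FPKM + 1), against the percent of its 100-nt windows found elsewhere in the genome, for the 3 libraries. The red points are the 5 members higher by 2 or more on the log2 scale at E13.5 than at E10.5, of which Rpl29, Rps2, Rps18 and Rpl3 lie between 83.5% and 100% shared and Rpl21 at 26.6%.

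From E13.5 to the Adult nearly all members were lower. The median difference was -1.77 over the 80 expressed members, which is 1.26 further down than the mRNA loci (relative median -1.26). Of the 80, 79 were lower, against 66.9% of expressed mRNA loci, and 66 were lower by 1 or more, against 32.1% of mRNA loci. Only Rpl3l was higher by 1 or more, and 13% of mRNA loci were. All 40 expressed loci of the large subunit were lower, with a median difference of -1.73, as were all 30 of the small subunit, with a median of -1.76. The 3 P stalk loci had a median of -2.48.

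Canonical members with under 10% shared windows, which share the smallest part of their transcripts with other places, were also lower in the Adult. A low percent in a long transcript can still hide a shared stretch. The matched transcript of Rps15a is 5134 nt, against a median of 710 nt over the members, so copies remain a doubt for it. Rpl8 stood at 858, 1203 and 203 FPKM, with the Adult at 0.169 of E13.5. Rps3, which lines the mRNA entry of the small subunit, stood at 486, 775 and 183 FPKM, a ratio of 0.236. In both the Adult was the lowest library and E13.5 the highest. Rpl22 of the large subunit stood at 105, 153 and 39.5 FPKM, with the Adult at 0.258 of E13.5. Rps15a of the small subunit stood lower throughout, at 15.4, 14.03 and 4.44 FPKM, with a ratio of 0.317 and with E10.5 rather than E13.5 as the highest library.

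The P stalk binds the elongation factors. Rplp0, the base of the stalk, was at 422, 540 and 130 FPKM. Rplp1 was at 724, 870 and 156 FPKM, and Rplp2 at 125, 132 and 21.8 FPKM. All 3 were lowest in the Adult, with differences from E13.5 to Adult of -2.05, -2.48 and -2.55.

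From E10.5 to the Adult the pattern was less uniform. The median difference was -1.31, or -0.92 relative to the mRNA loci. Of the 80 expressed members, 72 were lower, against 64.7% of expressed mRNA loci, and 44 were lower by 1 or more, against 27.3%. At the other end, 5 were higher by 1 or more, against 14.8% of mRNA loci. The relative median was -0.92 for each alternative scaling but that to equal FPKM sums, where it was -0.93.

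The 5 most negative differences from E10.5 to the Adult belonged to members of both subunits. Rps4y2, the files' name for a gene that RefSeq lists as Rps4l, was at 81.9, 132 and 5.14 FPKM, a difference of -3.76. It is an unspliced locus with no matching protein-coding transcript and the 1 member that is not an mRNA locus. Rps28 was at 13.4, 1.75 and 0.854 FPKM, a difference of -2.95, already low at E13.5. Rps20, a small subunit protein, was at 489, 596 and 68.1 FPKM (-2.83), and Rpl13a of the large subunit at 134, 165 and 22.4 FPKM (-2.53). Rpl36 was at 8.82, 9.49 and 0.727 FPKM (-2.51). Rps20, Rpl13a and Rpl36 were lower only after E13.5, whereas Rps28 had its larger step before it. Rps28 has 7 copies and 99.1% shared windows, and Rpl36 has 7 and 94.2%. Their Adult values rest on about 3.85 and 4.08 estimated fragments, so both differences are uncertain. Shared windows were 72.0% for Rps20, 44.6% for Rpl13a and 14.4% for Rps4y2.

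The 5 largest differences were those of Rpl3l (4.72), Rpl29 (3.76), Rps18 (2.35), Rps2 (2.26) and Rpl21 (1.58). Rpl29, Rps18, Rps2 and Rpl21 were all highest at E13.5 and lowest at E10.5. Rpl29 was at 0.527, 127 and 19.7 FPKM. Rps18 was at 5.12, 120 and 30.3 FPKM. Rps2 was at 2.16, 64.8 and 14.1 FPKM, and Rpl21 at 6.55, 38.7 and 21.5 FPKM. Together with Rpl3, these are the members higher at E13.5 than at E10.5 by 2 or more. Rpl29 has 20 copies and 83.5% shared windows, Rps2 has 29 and 94.9%, Rps18 has 6 and 100%, and Rpl3 has 7 and 95.7%. Rpl21 has 0 copies and 26.6% shared windows, and its locus holds 2 small nucleolar RNA genes. The matched transcript of Rpl21 is 1856 nt, against a median of 710 nt over the members. A place that matches only a small part of such a long transcript is not counted as a copy, so shorter copies can be missed. The part of such copies in the Rpl21 values was not tested. Each of these 5 had its lowest level at E10.5. They were picked for this step, so smaller differences in other members follow from the choice. The median difference from E10.5 to E13.5 was 0.50 over the 8 expressed members with under 10% shared windows. It was 0.39 over the 41 from 10% to 90% and 0.35 over the 31 at 90% or more. Among canonical members with under 10%, Rpl8, Rps3 and Rpl22 were 1.402 to 1.60 times as high at E13.5 as at E10.5.

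From E10.5 to E13.5 the members as a whole differed little. The median difference was 0.38, which is 0.22 above that of the mRNA loci, and it turned to -0.015 when each library was scaled to the same FPKM sum over all loci. That scaling moved the median of the mRNA loci to -0.19, and under the 3 other scalings the members stayed 0.17 to 0.20 above the mRNA loci. Of the 80 expressed members, 13 were lower, against 37% of mRNA loci. Higher by 1 or more were 13, against 5.89% of mRNA loci, and lower by 1 or more were 2, Rps28 and Rpl3l, against 4.85%. By shared windows, the 13 were 0 of the 8 expressed members under 10%, 6 of the 41 from 10% to 90% and 7 of the 31 at 90% or more, and no relation is read from such small counts.

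**Figure D3:**
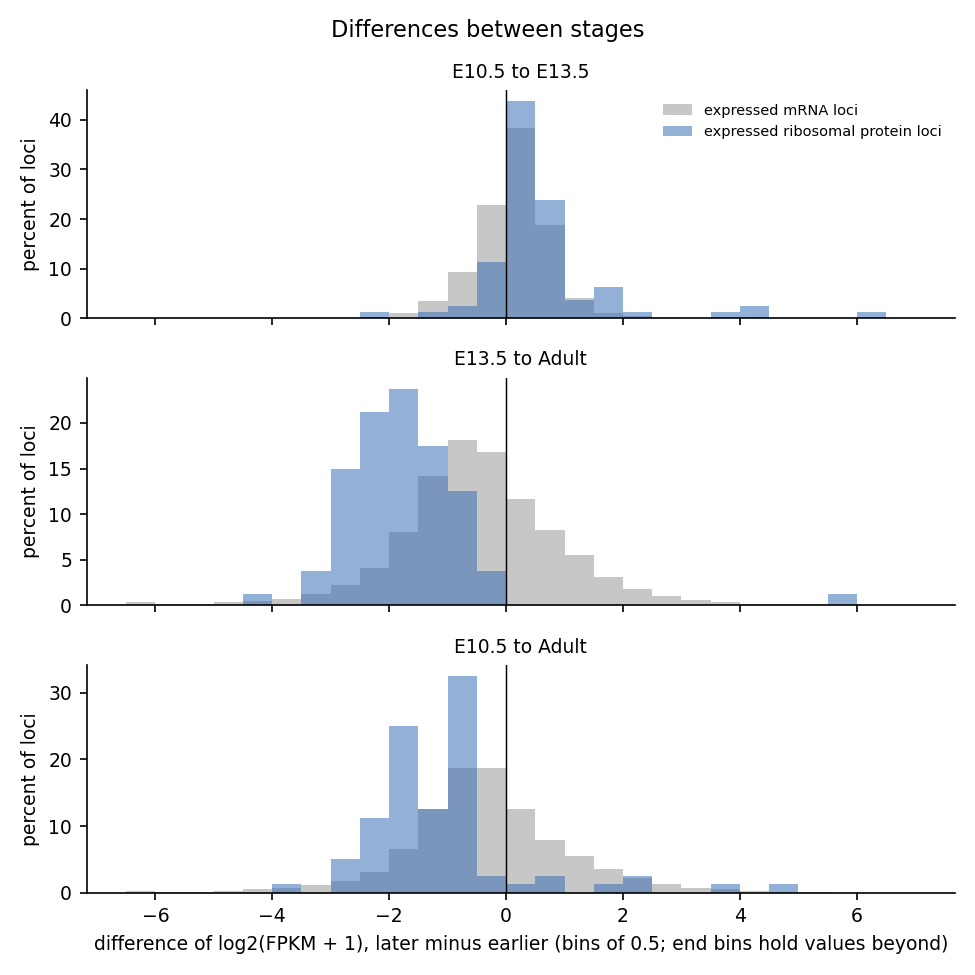
Share of loci by difference of log2(FPKM + 1) between stages, for the 80 expressed members (blue) and the 12569 expressed mRNA loci (grey), in bins of 0.5. The members are shifted to the left of the mRNA loci in both comparisons with the Adult, by medians of -1.77 against -0.50 and -1.31 against -0.40, with Rpl3l alone on the far right from E13.5 to Adult.

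Rpl3l was the only expressed member higher by 1 or more in the Adult than at E13.5, as deposited and under the 3 other scalings. From E10.5 to Adult 8 of the 80 expressed members were higher, Rpl3l among them. Its locus lies at chr17:24727829-24736149 on the plus strand. Rpl3l stood at 1.65 and 0.169 FPKM in the embryonic libraries, E10.5 first, and at 68.8 FPKM in the Adult. The estimated fragments behind these values were about 23.7, 4.68 and 986, so the embryonic values rest on few fragments. The difference from E13.5 to Adult was 5.90, and 13 of the 12569 expressed mRNA loci, Rpl3l included, differed by as much or more. From E10.5 to Adult it was 4.72, reached by 32 of 12569. None of its windows was shared with another place in the genome.

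Rpl3, at chr15:80077615-80083406 on the minus strand, stood at 8.76, 132 and 13.2 FPKM. The ratio of Rpl3l to Rpl3 was 0.189 for E10.5 and 0.00128 for E13.5. It was 5.21 for the Adult, where Rpl3l made up 83.9% of the FPKM of both, against 15.9% and 0.128% in the embryonic libraries. By these values the order of the pair was opposite in the Adult and in both embryonic libraries. The coding sequences of the pair, of 1221 and 1209 nt, are 73.2% identical. On the side of Rpl3, 95.7% of the windows are shared with other places and the locus holds 2 small nucleolar RNA genes. The size of each ratio, the percent of both and the order in the Adult are therefore uncertain. Set against other members, Rpl3l in the Adult stood above 60 of the 73 expressed canonical loci, at 4.97 times their median, but at 0.376 of the median of the 5 canonical members with under 10% shared windows. In the E13.5 library it stood below all 73.

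The mRNA loci whose profile over the 3 libraries was closest to that of Rpl3l, among 12568 compared by Euclidean distance of centred log2(FPKM + 1), were Plin4, Cd74, Lrrc2, Itga7 and Asb14. Plin4, a lipid droplet protein, was at 1.23, 0.0315 and 60.9 FPKM. Cd74, the invariant chain of antigen-presenting cells, whose locus also holds Mir5107, was at 2.74, 0.586 and 83.0 FPKM. Lrrc2 was at 3.46, 0.636 and 123 FPKM. Itga7, the laminin-binding integrin of muscle, was at 1.26, 0.309 and 70.3 FPKM, and Asb14 at 1.26, 0.320 and 56.6 FPKM. The distances ran from 0.0577 to 0.353 and rest on 3 libraries, so many unlike genes can share this shape.

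Of the other paralog pairs, only that of Rps4y2 and Rps4x differed in order between libraries. Rpl22l1, a paralog of Rpl22 that is known to regulate splicing, was at 10.47, 8.42 and 2.09 FPKM, at 0.0996, 0.0550 and 0.0529 of Rpl22. Rpl7l1 was at 24.4, 35.0 and 13.9 FPKM, at 0.196, 0.206 and 0.351 of Rpl7, which stood at 125, 170 and 39.6 FPKM. Shared windows were 100% for Rpl22l1 and 7.26% for Rpl22, and 14.2% for Rpl7l1 and 96.4% for Rpl7. The ratios of both pairs are therefore uncertain. Rpl36al and Rps27l stood above their canonical partners in every library. Rpl36al was at 107, 165 and 60.2 FPKM, against 4.10, 6.27 and 1.90 FPKM for Rpl36a. Rps27l was at 124, 177 and 51.2 FPKM, against 3.24, 4.11 and 0.798 FPKM for Rps27. The shared windows of these 4 were 89.0% for Rpl36al, 92.8% for Rpl36a, 9.86% for Rps27l and 100% for Rps27. The high values of Rpl36al and the low values of Rpl36a and Rps27 are therefore uncertain. Rps4y2 was level with Rps4x in the embryonic libraries, at ratios of 0.966 and 1.13, and at 0.237 of it in the Adult, where Rps4x stood at 21.7 FPKM. It stood just under Rps4x at E10.5 and just over it at E13.5. Shared windows were 14.4% for Rps4y2 and 100% for Rps4x, so the ratios and the order of this pair are uncertain. Rpl39l was at 0.125 and 0.484 FPKM in the embryonic libraries, with the Adult listed at 0, against 139, 151 and 47.0 FPKM for Rpl39. Rpl10l, a testis paralog, was listed at 0 in each library, with Rpl10 at 13.0, 6.66 and 4.42 FPKM. Rps27rt was not analysed here.

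**Figure D4:**
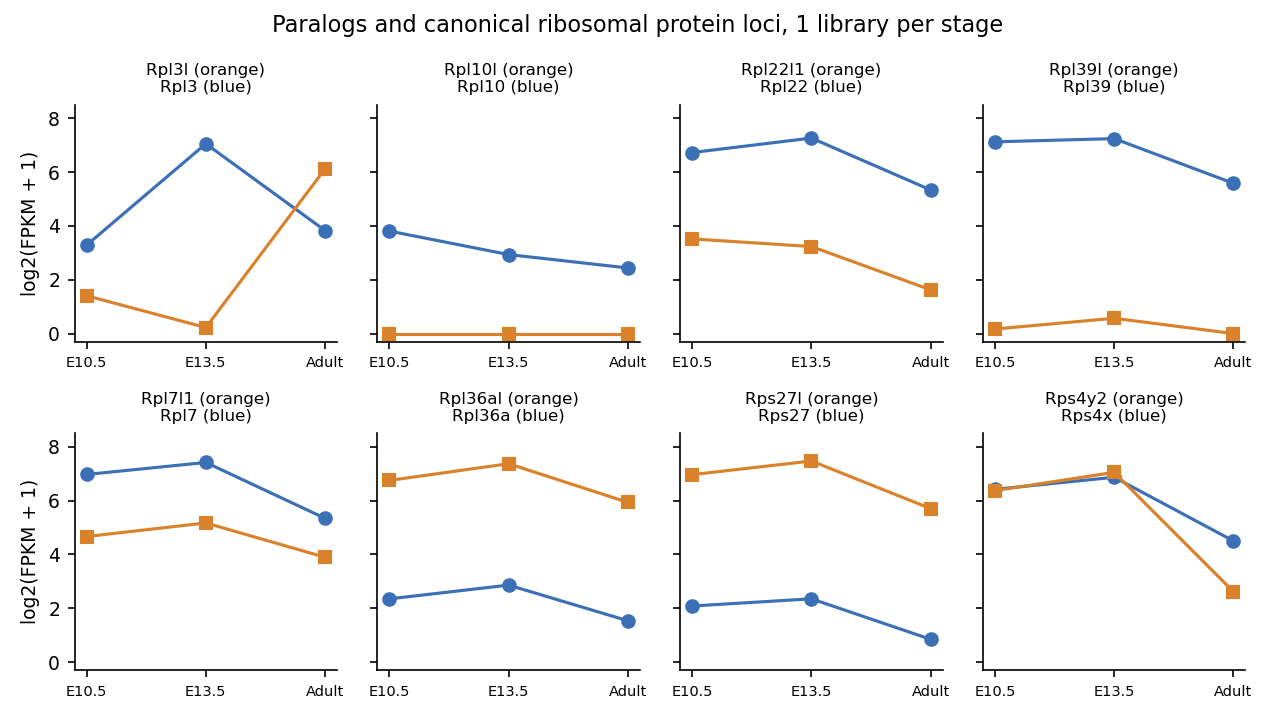
Levels, as log2(FPKM + 1), of 8 paralogs (orange squares) and their canonical partners (blue circles) in the 3 libraries, 1 point per library. Only in the Rpl3l panel do the lines cross between E13.5 and Adult with a large difference on both sides, from ratios of 0.00128 to 5.21.

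Some canonical members were hardly seen. Rpl17 was listed at 0 at E10.5 and stood at 0.895 and 0.0577 FPKM afterwards. Rpl23a was at 0.516, 0.165 and 0.132 FPKM, and Rpl27 at 0.393, 0.523 and 0.0710 FPKM. Rpl28 was at 0.454 and 3.43 FPKM before birth, and its Adult value is listed at 0. All 4 encode canonical large subunit proteins, and their shared windows were 83.6%, 94.6%, 63.6% and 100%, with 23, 20, 7 and 4 copies. An exact 0 in such a table can be a failed estimate. Rpl24 at 21.6, 11.8 and 10.7 FPKM shares its locus with Zbtb11, Rpl23 at 196, 288 and 134 FPKM with 1700001P01Rik, and Rpl34 at 4.002, 14.7 and 6.96 FPKM with the pseudogene Rpl34-ps1, so these values are joint ones. Rps19bp1 was at 13.3, 13.7 and 3.16 FPKM, lowest in the Adult.

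The other loci of protein synthesis were described from lists of genes. Of the ribosomal proteins that the name rule misses, 4 were found, of which 3 are described. Rpsa was at 390, 480 and 113 FPKM, Gnb2l1 (Rack1) at 768, 999 and 182 FPKM, and Fau at 16.3, 13.9 and 3.65 FPKM. All 4 were lower in the Adult than at E13.5, by a median of -1.88, and Rpsa, Gnb2l1 and Fau were lower than at E10.5 by 1 or more.

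Among 10 genes of elongation, 8 were lower by 1 or more from E13.5 to Adult, against 32.1% of expressed mRNA loci, and the median difference was -1.60. Eef1a1, which brings aminoacyl-tRNA to the ribosome, was at 2114, 2923 and 258 FPKM. Its muscle and neuron paralog Eef1a2 was at 31.5, 77.7 and 341 FPKM, the only one of the 10 that was higher by 1 or more in the Adult, with a difference of 3.40 from E10.5. By these values the Eef1a pair, like Rpl3l and Rpl3, had the opposite order in the Adult and in the embryonic libraries. Eef1a1 has 91.6% shared windows and Eef1a2 0%, so the level of Eef1a1 is uncertain. Eef2, the translocase, was at 748, 986 and 328 FPKM. The others lower than at E10.5 by 1 or more were Eef1b2, Eef1g, Eef1e1, Eif5a and Eif5a2, with differences of -1.33 to -2.94.

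Of 34 initiation factors found, 16 were lower by 1 or more from E13.5 to Adult, against 32.1% of mRNA loci, and the median difference was -0.97. Eif1 and Eif5b were higher by 1 or more, 2 of the 34, against 13% of mRNA loci. From E10.5 to Adult 13 were lower by 1 or more, against 27.3% of mRNA loci, and 0 were higher, against 14.8%. The largest of these differences was that of Pabpc1, the poly(A)-binding protein, at 178, 44.6 and 35.2 FPKM (-2.30). The other 12 were Eif1ax, Eif2s1, Eif2s3x, Eif3b, Eif3d, Eif3f, Eif3g, Eif3i, Eif3l, Eif4h, Eif5 and Eif6, between -1.09 and -1.87. Eif4a2, whose locus holds Snora81, was at 2579, 5550 and 3680 FPKM and did not share the low Adult level.

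Of 31 expressed genes of ribosome assembly and RNA polymerase I, 20 were lower by 1 or more from E13.5 to Adult, against 32.1% of mRNA loci, with a median difference of -1.19. Npm1, a nucleolar chaperone, was at 84.7, 106 and 18.5 FPKM. Nop58 and Nop56, of the box C/D particles that guide methylation of rRNA, were at 60.9, 86.0 and 14.9 FPKM and at 43.8, 47.0 and 10.9 FPKM. Lower from E10.5 to Adult by 1 or more were 14 genes, against 27.3% of mRNA loci. They were the 3 named and Nop2, Dkc1, Nhp2, Gar1, Bop1, Pes1, Tsr1, Ltv1, Nle1, Nolc1 and Polr1c, between -1.06 and -2.14. The 1 gene higher by 1 or more, Rrs1, has a locus that also holds Adhfe1, at 10.6, 15.3 and 38.6 FPKM. Of 14 genes of the mTOR branch and Myc, 3 were lower by 1 or more from E13.5 to Adult, against 32.1% of mRNA loci, and 0 were higher, against 13%. Their median was -0.25, which lay above that of the mRNA loci and was positive under each of the 3 other scalings. Of the 3 lower genes, Mycn was at 17.3, 21.7 and 0.617 FPKM, Eif4ebp1, a repressor of initiation, at 88.5, 143 and 35.6 FPKM, and the S6 kinase Rps6kb2 at 9.08, 12.5 and 3.86 FPKM. Mtor itself was at 8.99, 7.24 and 10.2 FPKM.

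**Figure D5:**
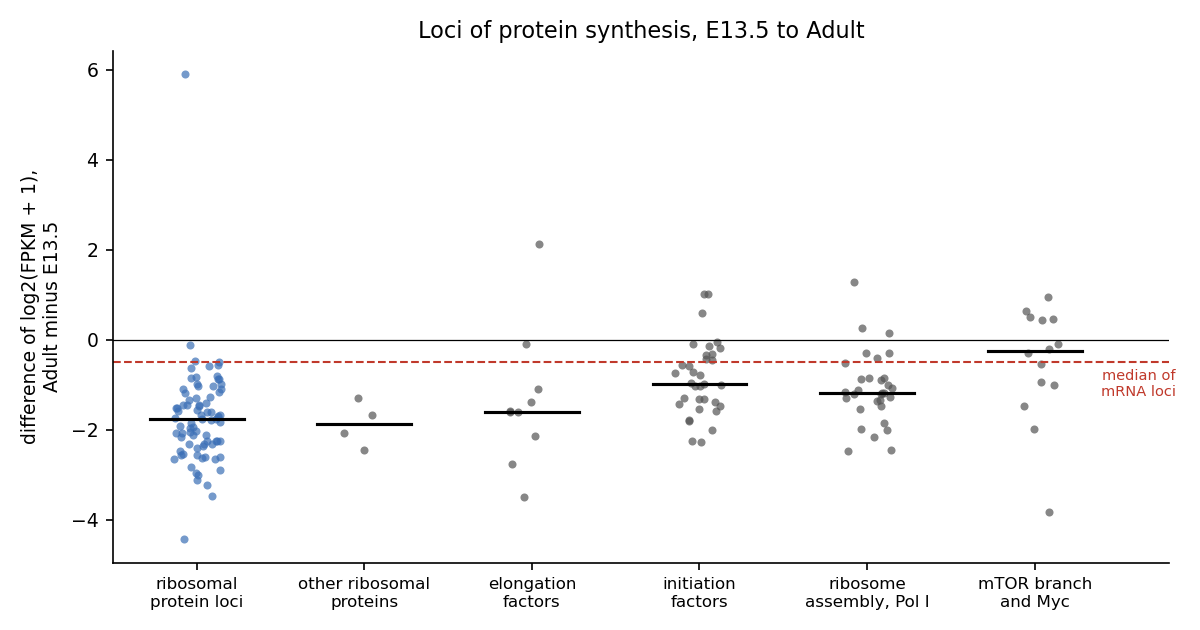
Difference of log2(FPKM + 1), Adult minus E13.5, for the expressed ribosomal protein loci and 5 lists of other genes of protein synthesis, 1 point per locus, with a bar at each median and a dashed line at the median of mRNA loci (-0.50). The medians ran from -1.88 for the other ribosomal proteins to -0.25 for the mTOR branch and Myc, and the highest point is Rpl3l at 5.90.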

How the data were processed

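Total RNA of mouse heart ventricle was sequenced as paired-end reads, 1 library per stage. The authors aligned them to the mm10 genome by TopHat2, built transcripts by Cufflinks and deposited 1 FPKM value per merged locus and library with the exons of the merged transcripts. The submitters' processing notes name TopHat, Bowtie and Cufflinks. Versions, options and the treatment of multiply mapped fragments are not given in the sources used here. All 393 introns of the members are introns of GENCODE M21 on GRCm38, so coordinates are GRCm38. FPKM sums and shares leave out 9 loci of the table without exons in the annotation.

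The members and lists were chosen with earlier results of these data known. Levels are FPKM, compared between genes per length. Differences are of log2(FPKM + 1), counted past 1, over loci that reach 1 FPKM in some library. No test was made. Values of a few loci are not reported here. Genes named were both Rpl3 paralogs, all paralog pairs, the 5 highest members per library, the 5 members at each end from E10.5 to Adult, members at 0 or under 1 FPKM, the P stalk, list genes differing by 1 or more from E10.5 to Adult and the 5 loci closest to Rpl3l in profile. Further genes were named after their values were seen, among them canonical members with under 10% shared windows, Eif1, Eif5b, Eif4a2, Mtor, Rpl23, Rpl24 and Rpl34. Copies and shared windows were found with BLAST+ 2.17.0 against GRCm38.p6, for the shortest matched transcript of each member. Alternatives changed the scaling, pseudocount (0.1), expression limit (none or 10 FPKM), threshold (0.5) and the members kept. The software was Python 3.11.15, scipy 1.17.1, pandas 2.3.3, numpy 2.4.6, biopython 1.88, pysam 0.24.0 and matplotlib 3.10.9, and the steps were tested on simulated data.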

Additional observations from a re-analysis of the deposited data

How the results depend on the processing

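Of 334 values recomputed for 59 results, 259 stayed close to the value reported, 64 moved further from it and 11 changed sign. A count was called close within a factor of 1.5. No paired analysis was possible because there is 1 library a stage, and no replicate could be left out. Fragment depth was estimated and not read from counts, and fragments mapping to several places limit every member with high sharing. For the members, the medians from E10.5 to E13.5 and from E13.5 to Adult were 0.26 and -1.21 under median-of-ratios scaling, 0.0901 and -1.44 with equal mRNA sums without globin and mitochondrial loci, and -0.0154 and -1.03 with equal FPKM sums over all loci. Relative to the mRNA loci under the same scaling, the medians lay between 0.17 and 0.20 from E10.5 to E13.5 and between -1.20 and -1.28 from E13.5 to Adult. Under the 2 latter scalings 4 members were lower by 1 or more from E10.5 to E13.5, against 8.64% and 11.9% of mRNA loci, and 26 and 41 were lower at all, against 56.7% and 64.7%. With equal FPKM sums over all loci 40 members were lower by 1 or more from E13.5 to Adult, against 16.1% of mRNA loci, Rpl3l differed by 7.03 from E13.5 and 5.39 from E10.5, and Rpl3 by -2.40 from E13.5.

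The lists and the other pairs were recomputed, and the limits on shared windows set, after seeing the data. From E10.5 to E13.5, the medians with equal mRNA sums turned to -0.0128 for elongation, -0.0748 for initiation and -0.0992 for assembly, and with equal FPKM sums over all loci to -0.13, -0.19 and -0.21, and to -0.0872 for the other ribosomal proteins. From E13.5 to Adult, they were -0.73, -0.13, -0.40 and -1.08 with equal FPKM sums over all loci. The mTOR and Myc list turned to 0.28, 0.0511 and 0.57 under median-of-ratios, equal mRNA sums and equal FPKM sums over all loci. These lists were shifted by the scaling in the same direction as the mRNA loci.

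Counts fell where fewer members entered, and they stand beside the shares of the 12569 expressed mRNA loci. From E10.5 to E13.5, 4.85% of these were lower and 5.89% higher by 1 or more, and 37% were lower at all. From E13.5 to Adult the same shares were 32.1%, 13% and 66.9%, and from E10.5 to Adult 27.3%, 14.8% and 64.7%. Among the 22 expressed members with under 50% shared windows, 1 was lower and 3 were higher by 1 or more from E10.5 to E13.5, and 2 were lower at all. From E13.5 to Adult 19 were lower by 1 or more and 21 at all. From E10.5 to Adult 15 were lower and 2 higher by 1 or more, and 19 were lower at all. These 22 held 0.736%, 0.799% and 0.344% of the FPKM sums. Among the 49 with under 90%, 1 was lower and 6 higher by 1 or more from E10.5 to E13.5 and 6 lower at all. From E13.5 to Adult 43 were lower by 1 or more and 48 at all, and from E10.5 to Adult 3 were higher by 1 or more and 45 lower at all. Without paralogs and Rps19bp1, 1 of 73 members was lower by 1 or more from E10.5 to E13.5 and 0 higher from E13.5 to Adult. Without members holding a small nucleolar RNA, 8 of 53 were lower from E10.5 to E13.5 and 52 of 53 from E13.5 to Adult. From E10.5 to Adult 29 of the 53 were lower and 3 higher by 1 or more, and the Adult share was 0.519%. With a limit of 10 FPKM, 8 of 61 were lower from E10.5 to E13.5, and the share of mRNA loci at that limit was not computed. At a threshold of 0.5, 4 were lower and 32 higher from E10.5 to E13.5, and 70 lower from E10.5 to Adult. The shares of mRNA loci at this threshold are not given here, so these counts are not read against a background. The shares of the mRNA sum were 3.51% and 3.98% for the embryonic libraries, or 3.59% and 4.17% without globin and mitochondrial loci.

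With a pseudocount of 0.1 and with none, the log2 ratio of Rpl3l to Rpl3 at E13.5 was -8.94 and -9.61, and Rpl3l differed by -2.70 and -3.29 from E10.5 to E13.5 and by 8.00 and 8.67 from E13.5 to Adult. With none it differed by 5.38 from E10.5 to Adult. The log2 ratio of Rpl39l to Rpl39 was -9.27 and -10.12 at E10.5 and -8.01 and -8.28 at E13.5, that of Rps27l to Rps27 in the Adult was 5.84 and 6.00, and that of Rpl36al to Rpl36a in the Adult was 4.99 with none.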
